A study of Bos taurus and Sus scrofa with 10 samples.

Results

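The genes described here are 7 that copy DNA methylation onto newly replicated DNA or regulate that copying in the oocyte: DNMT1, UHRF1, UHRF2, DPPA3, HELLS, PCNA and USP7. They were chosen by function, with earlier results of these data known, and matched to the gene tables by symbol. The cow table had a row for all 7, among 22845 rows with 20799 symbols or identifiers. The pig table had a row for 6 of them, among 21867 rows with 20502 symbols or identifiers, and pig DPPA3 was not analysed here. Every member had 1 row in a table that held it.

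When DNA is replicated, each daughter helix carries methyl groups on the parental strand alone, and maintenance methylation restores the symmetrical mark. UHRF1 recognises such hemimethylated sites and ubiquitinates histone H3, which brings in DNMT1, the methyltransferase that methylates the new strand. PCNA, the sliding clamp of the replication fork, holds DNMT1 at replication sites, USP7 removes ubiquitin from DNMT1 and UHRF1, and HELLS is a chromatin remodeller needed for methylation of compacted DNA. DPPA3 (STELLA) binds UHRF1 and, in the mouse oocyte, keeps it out of the nucleus and off chromatin, and UHRF2 is the paralog of UHRF1. In mammalian embryos before implantation much of the inherited methylation is lost, while imprinted regions keep theirs.

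The study measured total RNA of bovine (Bos taurus) and porcine (Sus scrofa) oocytes, 2-4 cell embryos, 8-16 cell embryos, morulae and blastocysts, as the expression side of work on how DNA methylation is reprogrammed in these species. The labels name no treatment, genotype or age for any group. There was 1 library for each of the 5 stages in each of the 2 species, 10 libraries in all. How many oocytes or embryos went into a library, the breed, the maturation of the oocytes and the way the embryos were obtained are not given in the sources used here. Values are reads per 1000000 reads of a library (RPM), not divided by transcript length, so levels are compared between stages of 1 gene and not between genes.

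With 1 library a group there was no replicate check and no test could be made. A change was the difference of log2(RPM + 1), taken for genes with at least 1 RPM in 1 of the 2 stages, and was called at 2 or more, a 4-fold change. Intervals are 95% intervals that cover counting error only, since amplified reads without molecular identifiers are not independent molecules. In bulk libraries, fewer cells of a type and less RNA per cell cannot be told apart, and RPM is a share of a library's reads rather than an amount per embryo.

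The libraries held 3002751 to 14182046 reads, the cow blastocyst library being the deepest. Reads of mitochondrial genes took 2.74% to 30.2% of a library, most in the cow blastocyst library. The floor of 3 reads lay between 0.212 and 0.999 RPM. The oocyte markers fixed for the check (such as ZP2, GDF9 and BMP15) summed to 5954 RPM in the cow oocyte library and 5902 RPM in the pig one, against 0.0705 and 22.5 RPM in the blastocyst libraries. Trophectoderm markers, among them KRT8 and KRT18, summed to 22.7 and 19.8 RPM in the cow and pig oocyte libraries and to 2771 and 6972 RPM in the blastocyst libraries. NANOG and SOX2, markers of the inner cell mass, both had 0 reads in the pig blastocyst library, which allows up to 0.804 RPM.

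No member was called higher in any comparison of consecutive stages or of oocyte with blastocyst, and DNMT1, UHRF1 and UHRF2 fell in both species. Between the cow oocyte and blastocyst libraries 4 of 7 members fell, namely DNMT1, UHRF1, UHRF2 and DPPA3, while HELLS, PCNA and USP7 did not reach the threshold. Over all cow genes compared, 40.2% changed and 18.4% were lower by this measure. In pig 5 of 6 members fell between the same stages, all but HELLS, against 45.2% of all genes changed and 19.2% lower. The median difference of the members on the log2 scale was -3.88 in cow and -3.44 in pig, against 0.18 and 0.43 for all genes compared. For genes with at least 100 RPM in the oocyte library of the species it was -1.94 and -1.79. The pig member median also takes in UHRF1 (41.4 RPM) and HELLS (96.8 RPM), which lay below that level in the oocyte library.

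Most members were abundant in the oocyte libraries, and they can also be set beside the other abundant genes. Of 1663 cow genes with at least 100 RPM in the oocyte library, 48.6% were lower by 2 or more in the blastocyst library, and so were 4 of the 7 members, all of which passed that level. Of 1924 such pig genes 46.1% were lower, and so were 4 of 4 members above that level: DNMT1, UHRF2, PCNA and USP7. This background was chosen after the values had been seen.

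**Figure D1:**
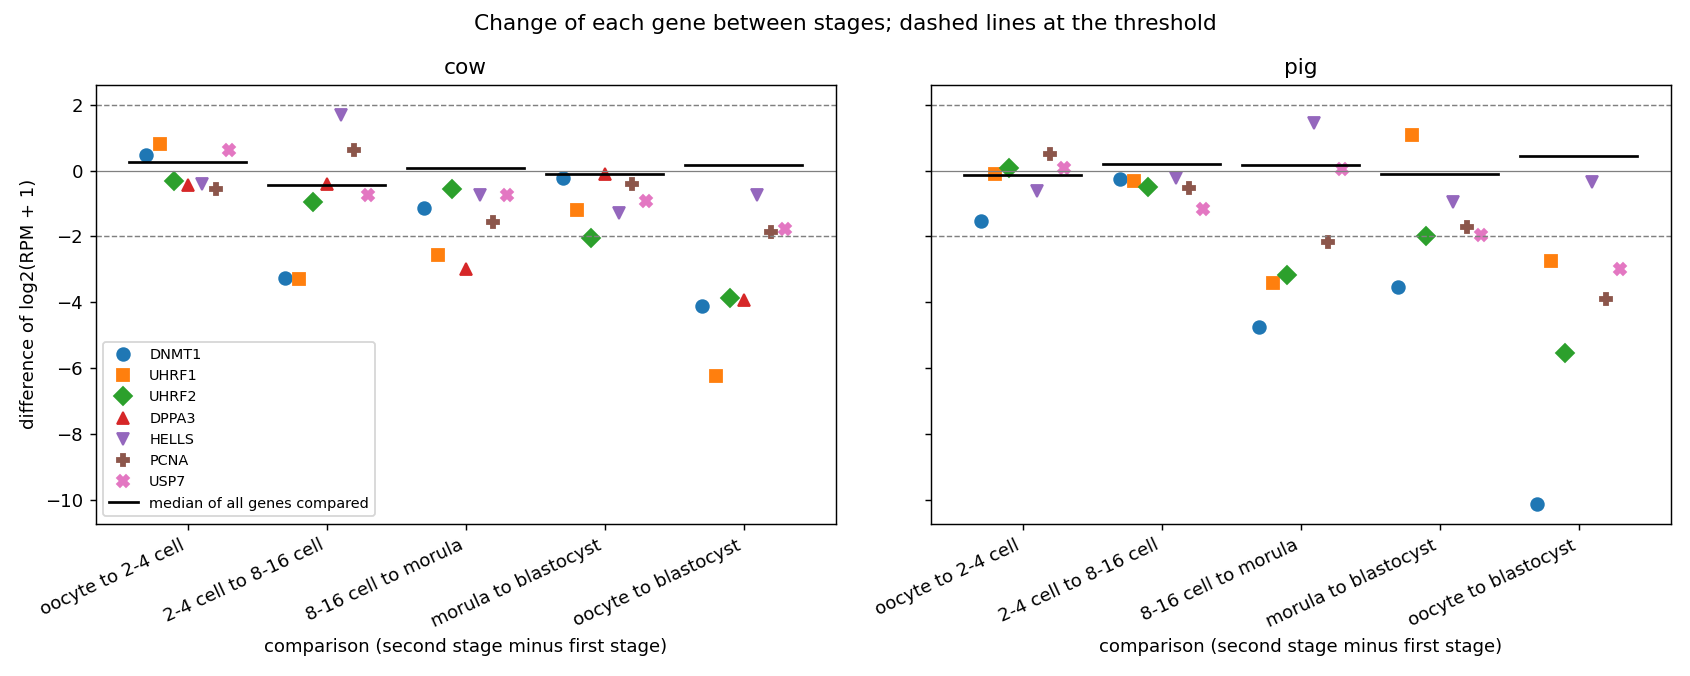
Difference of log2(RPM + 1), second stage minus first, for each gene in cow (left) and pig (right); each symbol is 1 gene, black bars are the median of all genes compared and dashed lines mark the threshold of 2. The largest consecutive falls of DNMT1 and UHRF1 stand between 2-4 and 8-16 cells in cow (-3.25 and -3.28) and between 8-16 cells and morula in pig (-4.76 and -3.40).

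Calls between consecutive stages stood at 3 steps in cow and 2 in pig. Between 2-4 and 8-16 cells 2 of 7 cow members fell, DNMT1 and UHRF1. Over all cow genes 27.2% changed in either direction at this step, and 1805 of 12405 were lower by 2 or more. Of 1861 cow genes with at least 100 RPM at 2-4 cells 27.7% were lower, as were 2 of the 6 members at that level. Beside these abundant genes the cow count at this step was near the background. From 8-16 cells to morula 2 of 7 cow members fell, UHRF1 and DPPA3. Over all cow genes 11.8% changed in either direction there, and 635 of 12334 were lower. In pig no member was called between 2-4 and 8-16 cells (0 of 6, against 4.87% of all genes). Between 8-16 cells and morula 4 of 6 pig members fell: DNMT1, UHRF1, UHRF2 and PCNA. Over all pig genes 23.3% changed in either direction at that step, and 1434 of 12746 were lower. Among pig genes with at least 100 RPM at 8-16 cells, 21.9% were lower in the morula library, and 3 of the 4 members at that level were. UHRF1 was called at this step in both species, DNMT1 in pig alone, and the difference between the species was not tested.

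At the first and last steps there was at most 1 call. From oocyte to 2-4 cells 0 of 7 members were called in cow, against 0.374% of all genes, and 0 of 6 in pig, against 5.43%. From morula to blastocyst 1 of 7 fell in cow (UHRF2), where 23.4% of all genes changed in either direction and 1457 of 12653 were lower. In pig 1 of 6 fell (DNMT1), where 27.6% changed in either direction and 1732 of 12567 were lower. With 1 member fallen in each species, these last counts cannot be placed above or below the background.

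DNMT1 is the maintenance methyltransferase itself. Its cow gene lies at chr7:15913446-15956917 on the minus strand (UMD3.1) and its pig gene at chr2:68981566-69029855 on the minus strand (Sscrofa11.1). In the cow libraries it stood at 400.0 RPM in the oocyte, 557 at 2-4 cells, 57.4 at 8-16 cells, 25.9 in the morula and 22.2 in the blastocyst. Both early cow libraries were high and the 3 later ones low. The fall from 2-4 to 8-16 cells was 9.69-fold (8.61 to 10.9) and made up 79.2% of the log2 difference from oocyte to blastocyst. The 2 last cow libraries could not be told apart by counting error, with intervals of 21.3 to 31.5 RPM in the morula and 19.9 to 24.8 RPM in the blastocyst.

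In pig the DNMT1 values were 34449, 11849, 9853, 362 and 30.03 RPM in the same order. The 3 early libraries were high, the morula library lay far below them and the blastocyst library lower again. DNMT1 held 3.44% of all reads of the pig oocyte library, and by reads it ranked 1 of 10045 genes there, 4 in both the 2-4 cell and the 8-16 cell library, 359 in the morula and 4519 of 10760 in the blastocyst. The cow gene ranked 303 of 10508 in the oocyte, then 176, 2416 and 4237, and 4748 of 10872 in the blastocyst, so that by rank the pig gene stood above the cow gene in the first 4 stages and near it in the last. These ranks are by reads, in which longer transcripts count for more.

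The pig transcript was lower than at the stage before at all 4 steps, and 2 of these falls reached the threshold. It fell 27.2-fold (25.6 to 28.9) between 8-16 cells and morula and 12.1-fold (9.93 to 14.8) between morula and blastocyst. The difference between oocyte and 2-4 cells, 2.91-fold lower (2.88 to 2.94), did not reach the threshold. Over the whole course pig DNMT1 fell 1147-fold (953 to 1393), on 116357 reads in the oocyte and 112 in the blastocyst, and cow DNMT1 18.0-fold (16.0 to 20.3).

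**Figure D2:**
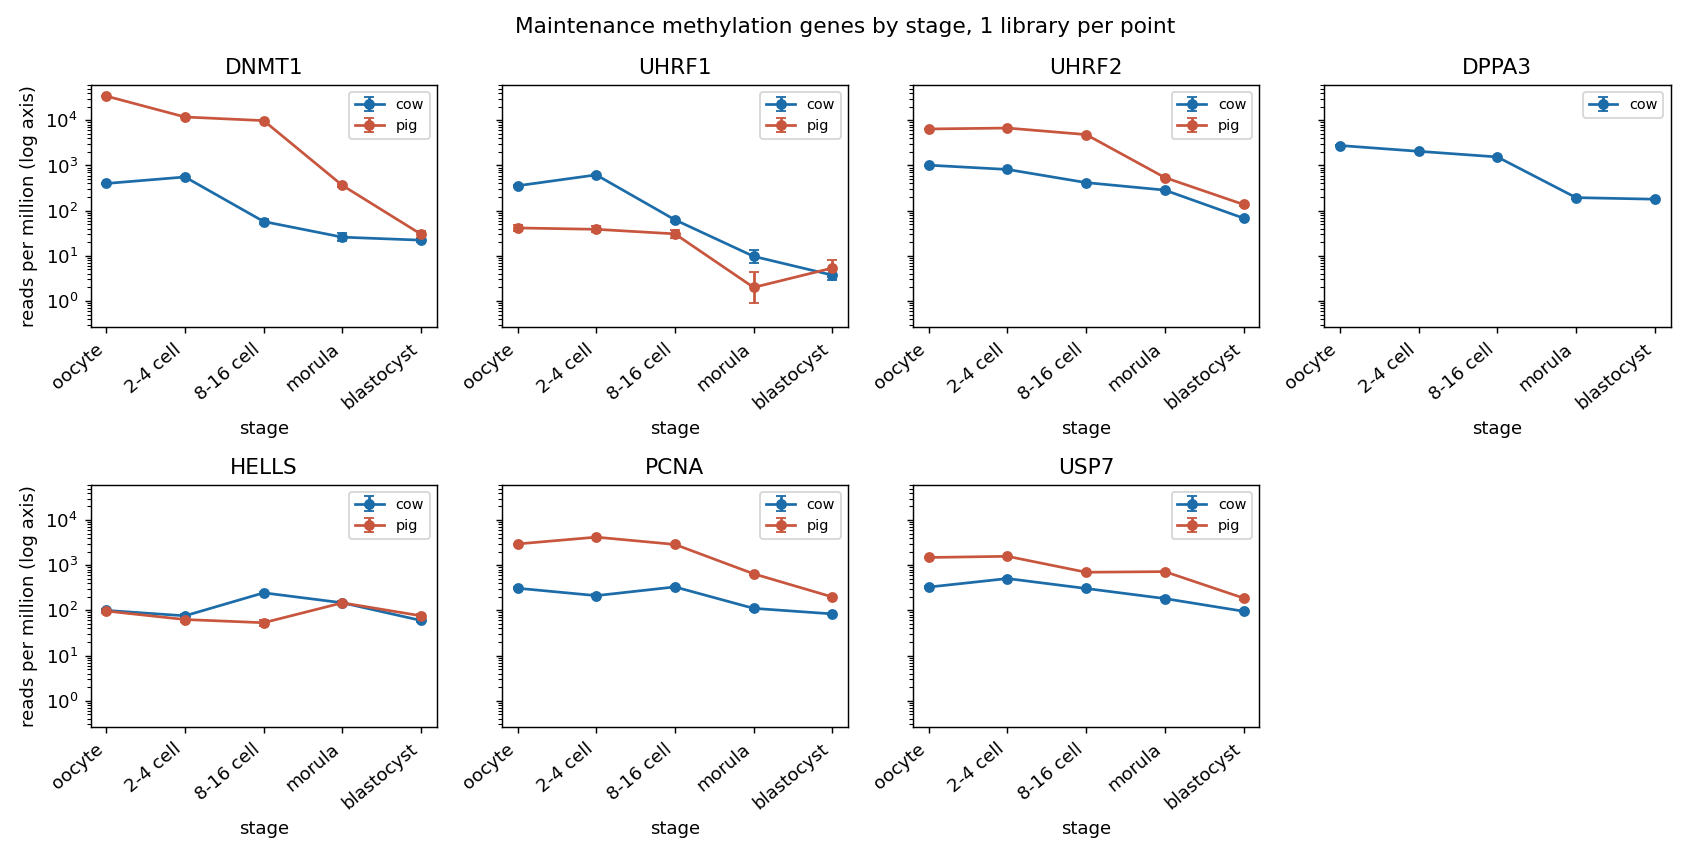
RPM (log axis) of each gene in the 5 stages, cow in blue and pig in red; each point is 1 library and bars are 95% Wilson intervals, mostly smaller than the points. Pig DNMT1 spans 34449 to 30.03 RPM, while HELLS stays between 53.4 and 245 RPM in all 10 libraries.

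UHRF1, the reader of hemimethylated DNA, lies at chr7:20436670-20469912 on the minus strand in cow (UMD3.1) and at chr2:73897310-73931916 on the minus strand in pig (Sscrofa11.1). Cow UHRF1 stood at 356, 619.8, 62.8, 9.75 and 3.74 RPM from oocyte to blastocyst. The highest value was that of the 2-4 cell library, 1.74 times the oocyte value (1.64 to 1.85), below the threshold. The gene then fell at 2 consecutive steps, 9.87-fold (8.82 to 11.08) to 8-16 cells and 6.44-fold (4.598 to 9.26) to the morula. The whole fall from oocyte to blastocyst was 95.2-fold (72.4 to 128), on 1754 and 53 reads.

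Pig UHRF1 was counted with far fewer reads. It stood at 41.4, 38.7, 30.6, 2.00 and 5.36 RPM on 140, 160, 97, 6 and 20 reads. The intervals of the first 3 libraries overlapped (35.1 to 48.9, 33.1 to 45.1 and 25.1 to 37.4 RPM), and the 2 later libraries lay below all of them. UHRF1 fell 15.3-fold (6.79 to 42.8) between 8-16 cells and morula and was 7.73-fold lower (4.82 to 13.04) in the blastocyst than in the oocyte. From morula to blastocyst it differed by 1.09 on the log2 scale, a 2.68-fold higher value (1.04 to 8.17) below the threshold, where the cow gene differed by -1.18.

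UHRF2, the UHRF1 paralog, lies at chr8:38569327-38636946 on the minus strand in cow (UMD3.1) and at chr1:215730219-215807674 on the minus strand in pig (Sscrofa11.1). Cow UHRF2 stood at 1016, 818, 418, 285 and 68.2 RPM, each stage lower than the one before. It fell 14.9-fold (13.9 to 16.0) from oocyte to blastocyst, with a single call at the last step, 4.18-fold (3.83 to 4.56). That call (-2.05 on the log2 scale) was lost under 3 other scalings of the libraries, the smallest difference being -1.76.

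Pig UHRF2 stood at 6436, 6751, 4835, 541 and 137 RPM, with the first 3 libraries high and the last 2 low, the same division as for pig DNMT1. By reads it ranked 6, 8 and 10 among the genes of the first 3 pig libraries, 169 in the morula and 1298 in the blastocyst. It fell 8.93-fold (8.49 to 9.41) between 8-16 cells and morula. The next step, 3.95-fold lower (3.57 to 4.37), was just under the threshold, and the fall from oocyte to blastocyst was 47.0-fold (43.0 to 51.4).

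DPPA3, the oocyte protein that restrains UHRF1, lies at chr5:101791824-101799616 on the plus strand in cow (UMD3.1). Its cow values were 2769, 2062, 1546, 194 and 179 RPM. The first 3 libraries were high and the last 2 low and near each other (morula 181 to 209 RPM, blastocyst 173 to 186 RPM). By reads it ranked 11, 14 and 17 in the first 3 libraries and 809 and 577 in the others. DPPA3 fell 7.95-fold (7.38 to 8.58) between 8-16 cells and morula, which was 75.7% of its log2 difference from oocyte to blastocyst. Among cow genes with at least 100 RPM at 8-16 cells, 6.84% were lower by 2 or more in the morula, and DPPA3 was the 1 of 5 members at that level to be so.

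Cow DPPA3 was called 1 step after the first falls of cow DNMT1 and UHRF1. Between 2-4 and 8-16 cells it was 1.33-fold lower (1.29 to 1.37), where UHRF1 was 9.87-fold lower. Within the same libraries the ratio of DPPA3 to UHRF1, set against its oocyte value, was 0.427 (0.400 to 0.456) at 2-4 cells and 3.16 (2.81 to 3.56) at 8-16 cells. It ended at 6.17 (4.68 to 8.13) in the blastocyst.

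HELLS, the remodeller, lies at chr26:15857421-15897465 on the plus strand in cow (UMD3.1) and at chr14:105922992-105966977 on the minus strand in pig (Sscrofa11.1). It was called at no step in either species. Cow values were 100.001, 75.9, 245, 147 and 59.8 RPM, with the peak at 8-16 cells. Pig values were 96.8, 62.8, 53.4, 147 and 75.9 RPM, with the peak in the morula.

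The upward differences of HELLS came at the step where DNMT1 fell most in each species. In cow HELLS was 3.23 times higher (2.86 to 3.65) at 8-16 than at 2-4 cells, a log2 difference of 1.68 that stayed under the threshold but reached 2.03 with median-of-ratios size factors. In pig it was 2.76 times higher (2.30 to 3.31) in the morula than at 8-16 cells, a log2 difference of 1.45. Blastocyst and oocyte differed by -0.73 in cow and -0.35 in pig on the log2 scale.

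PCNA, the replication clamp, lies at chr13:47788530-47794602 on the minus strand in cow (UMD3.1). In pig its row spans chr17:14136886-14185276 on the minus strand (Sscrofa11.1) and overlaps CDS2 on the opposite strand. Whether the counting used strand is not given in the sources used here, so reads of pig PCNA and CDS2 may not be separated. Cow PCNA stood at 309.7, 212, 331, 111 and 83.8 RPM and was 3.70-fold lower (3.43 to 3.99) in the blastocyst than in the oocyte, a log2 difference of -1.87 under the threshold. The pig row stood at 2962, 4190.05, 2888, 646 and 199 RPM, 3 high libraries followed by 2 low ones. It fell 4.47-fold (4.25 to 4.70) between 8-16 cells and morula and 14.9-fold (13.8 to 16.1) between oocyte and blastocyst.

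USP7, the deubiquitinase, lies at chr25:7769457-7796941 on the minus strand in cow (UMD3.1) and at chr3:33753800-33810465 on the plus strand in pig (Sscrofa11.1). Cow USP7 stood at 329, 508, 306, 183 and 95.8 RPM, a difference of -1.77 from oocyte to blastocyst on the log2 scale that was not called. Pig USP7 stood at 1486, 1577, 700.2, 723 and 187 RPM and fell 7.93-fold (7.32 to 8.59) over the same stages. No single pig step was called. The 8-16 cell and morula libraries of pig had overlapping intervals (672 to 729.98 and 693 to 754 RPM), so USP7 did not differ beyond counting error at the step where pig DNMT1, UHRF1, UHRF2 and PCNA fell.

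Ratios of 2 genes within a library do not depend on the library's total, and gene length cancels when a ratio is set against its oocyte value. Of the 8 pairs computed, DNMT1 over UHRF1 moved in opposite directions in the 2 species. In cow it was 5.29 times its oocyte value in the blastocyst (3.92 to 7.12). In pig it was 0.00674 of the oocyte value (0.00407 to 0.0112), that is 148-fold lower. At 2-4 and 8-16 cells the cow ratio was 0.799 and 0.814 of its oocyte value, and the pig ratio 0.369 and 0.387.

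The ratios of UHRF2 to UHRF1 and of UHRF1 to PCNA also ended on opposite sides of their oocyte values. In cow it was 0.462 of the oocyte value at 2-4 cells, 2.33 at 8-16 cells, 10.2 in the morula (7.38 to 14.2) and 6.39 in the blastocyst (4.82 to 8.47). In pig the morula ratio, 1.74 (0.769 to 3.95), could not be told from the oocyte ratio on 6 UHRF1 reads, and the blastocyst ratio was 0.165 (0.102 to 0.265). UHRF1 over PCNA was 0.0388 of its oocyte value in the cow blastocyst (0.0292 to 0.0516) and 1.93 times it in the pig blastocyst (1.20 to 3.0999). DNMT1 over PCNA ended lower in both, at 0.205 in cow (0.178 to 0.236) and 0.0130 in pig (0.0106 to 0.0159).

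HELLS over DNMT1 rose past 4-fold in both species, to 10.8 times the oocyte value in the cow blastocyst (9.15 to 12.7) and 899 times in the pig blastocyst (704 to 1148). In cow it first stood above 4-fold at 8-16 cells (17.1, 14.6 to 19.998), in pig in the morula (145, 124 to 169). HELLS over PCNA ended at 2.21 in cow (1.93 to 2.53) and 11.7 in pig (9.80 to 13.9). USP7 over UHRF1 ended at 27.7 in cow (20.9 to 36.8), while in the pig blastocyst it was 0.975 (0.606 to 1.57), within counting error of the oocyte value.

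**Figure D3:**
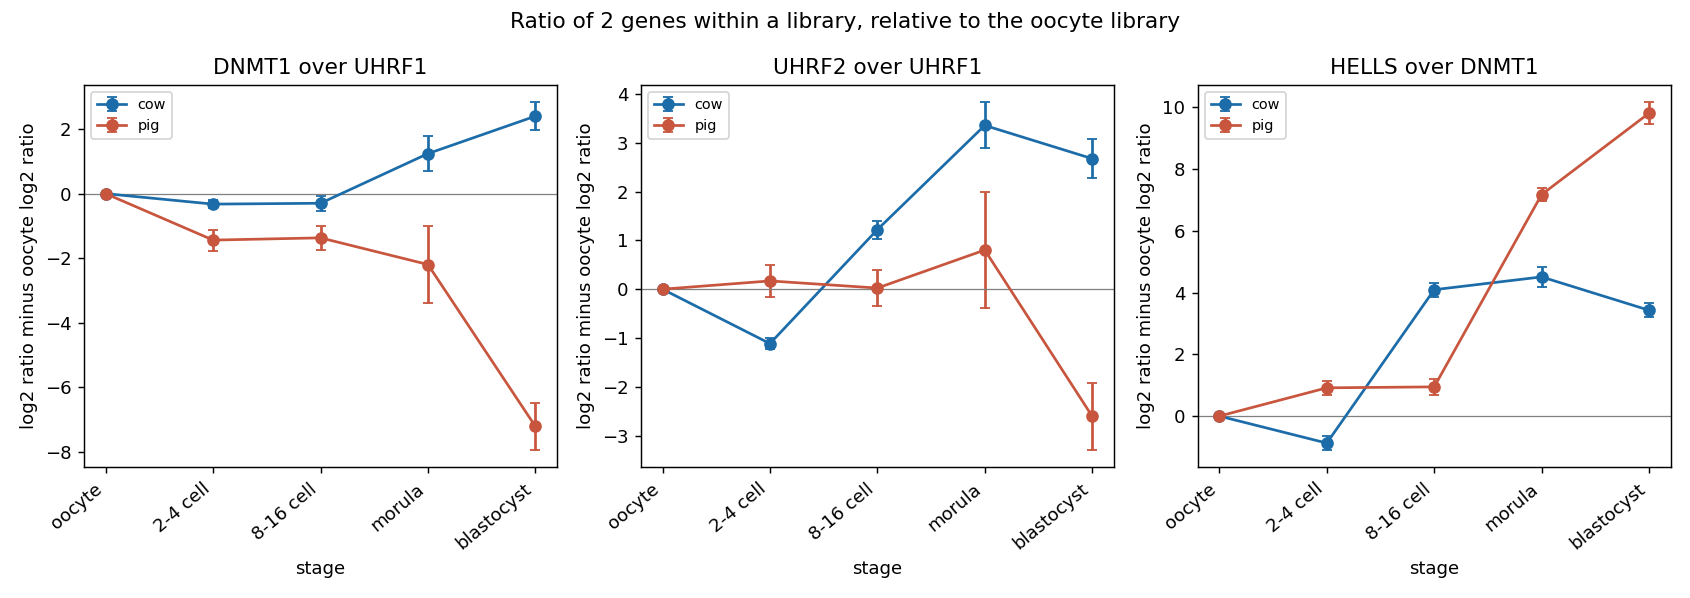
Log2 ratio of 2 genes in each library minus the log2 ratio in the oocyte library of that species, cow in blue and pig in red; each point is 1 library and bars are 95% counting intervals. DNMT1 over UHRF1 ends at 2.40 in cow and -7.21 in pig, and HELLS over DNMT1 at 3.43 and 9.81.

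Profiles were then compared by the root mean square difference of log2(RPM + 1) values centred within a species, over the 5 stages. Between cow and pig the 9688 symbols present in both had a median distance of 1.11. USP7 had the most similar course in the 2 species of the 6 genes, at 0.457, a distance larger than that of 5.44% of the symbols. HELLS (0.895), PCNA (1.0025) and UHRF2 (1.07) lay below the median distance, UHRF1 above it (1.54), and DNMT1 at 2.42 was farther apart than 95.7% of the symbols.

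Within a species the courses of DNMT1 and UHRF1 were 0.961 apart in cow and 2.55 apart in pig. The nearest pair of members was PCNA and USP7 in cow (0.496) and UHRF2 and PCNA in pig (0.634). HELLS lay farthest from UHRF1 in cow (2.82) and from DNMT1 in pig (3.94). These distances describe 5 libraries a species and carry no error.

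Over all 10 libraries and 9687 other symbols, the profile nearest to DNMT1 was that of GRIP1 (0.675), followed by THSD7A (0.70003) and TP63 (0.782). GRIP1 stood at 779, 375, 272, 20.6 and 0.268 RPM in the pig libraries and at 6.90, 12.8, 1.84, 0.769 and 1.06 RPM in the cow ones. For UHRF1 the nearest were ELOVL4 (0.438), RAI14 (0.483) and C10orf90 (0.494), and for UHRF2 they were CLIP4 (0.285), SLC17A1 (0.328) and S100PBP (0.348). Nearest to HELLS were MZT1 (0.187), EIF2A (0.188) and SLC7A6OS (0.240), nearest to PCNA were PPP6C (0.376), CEP95 (0.391) and ADGRG7 (0.395), and nearest to USP7 were RASSF3 (0.263), SPDL1 (0.326) and CCDC125 (0.343). For DPPA3, over the 5 cow libraries, they were GBX1 (0.159), ZNF618 (0.251) and SEMA3A (0.258). GBX1 went from 16.6 RPM in the cow oocyte to 0 RPM in the morula, and SEMA3A from 17.2 RPM to 0 RPM in morula and blastocyst. ZNF618 did not reach 0 RPM. TP63, C10orf90, CLIP4 and ADGRG7 also reached 0 RPM in a blastocyst library. A fall to 0 RPM is bounded by the 1 RPM added before the logarithm, so distances to such genes depend on it. The median distance to all symbols ran from 1.19 for HELLS to 3.19 for DNMT1.

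The genes these 7 work with were taken from 4 lists, 35 genes in all, and compared between oocyte and blastocyst. In cow 32 could be compared, of which 5 were higher, 8 lower and 19 not called. In pig 30 could be compared, of which 4 were higher, 8 lower and 18 not called. Both shares lie near or below the 40.2% and 45.2% of all genes that changed, and 6 of the 8 falls in cow and 3 of the 8 in pig were in the list on UHRF1 localisation.

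**Figure D4:**
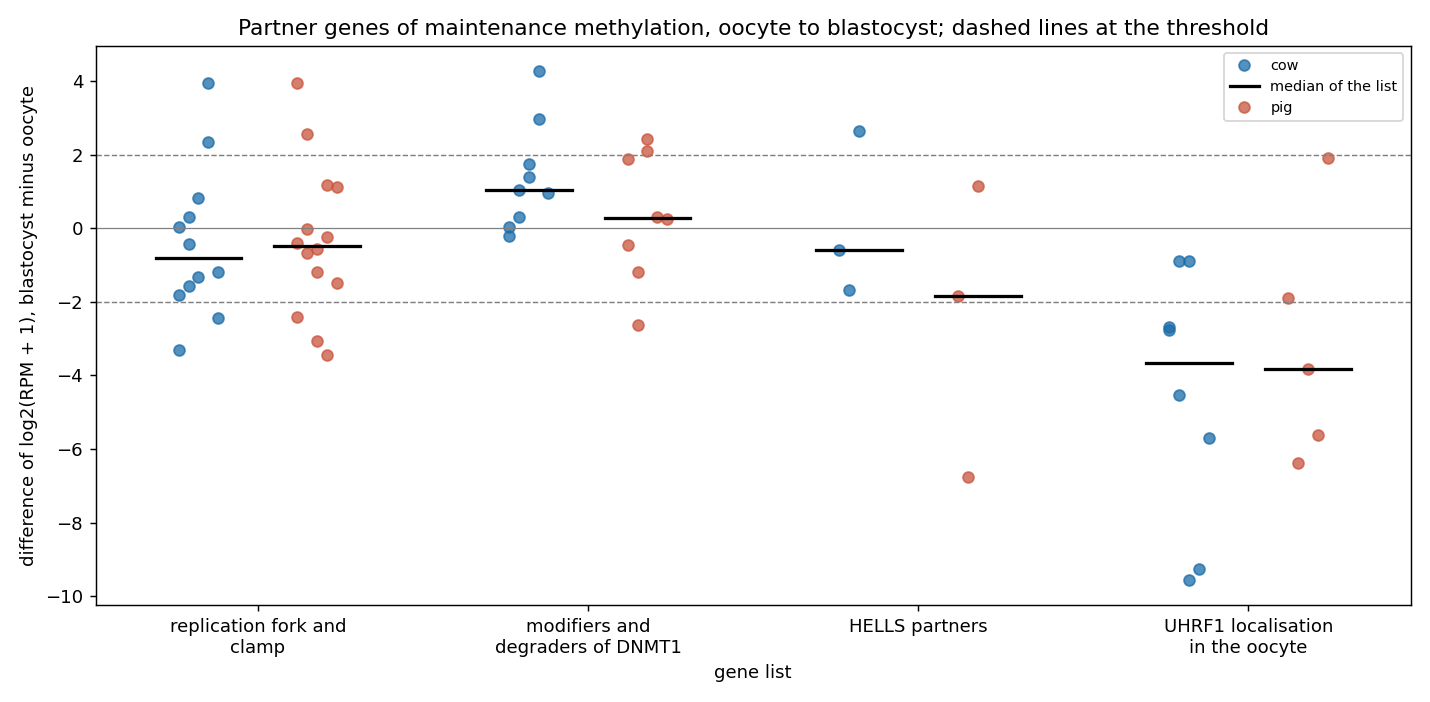
Difference of log2(RPM + 1), blastocyst minus oocyte, for the partner genes compared in each of the 4 lists, cow in blue and pig in red; each point is 1 gene, black bars are list medians and dashed lines mark the threshold of 2. The UHRF1 localisation list has the lowest medians, -3.66 in cow and -3.82 in pig.

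The list on UHRF1 localisation in the oocyte holds the exporter XPO1, the importins KPNA6 and KPNA7, NLRP14, which binds UHRF1, and members of the subcortical maternal complex and its lattices. In cow 6 of 8 fell and 2 were not called, with a median of -3.66 (-3.62 with genes at 0 reads set to the floor). In pig 3 of 5 fell and 2 were not called, with a median of -3.82 (-3.28 with the floor). Most of these genes are transcribed in oocytes, so their place beside oocyte markers is part of how the list was drawn up.

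KPNA7, the importin of oocytes, stood at 798, 889, 100.5, 1.795 and 0 RPM in cow, at least 3770-fold lower in the blastocyst than in the oocyte. In pig, where its row overlaps U2, it stood at 1433, 1327, 752, 29.0 and 16.1 RPM, 89.1-fold lower. The cow values were already low at 8-16 cells, whereas those of pig were low from the morula on. NLRP14 in cow stood at 702, 995, 95.9, 9.75 and 0.141 RPM, the last on 2 reads, a 4981-fold lower value (1378 to 41146). NLRP5 in cow went from 65.9 to 0.282 RPM, 234-fold lower (90.4 to 863). PADI6, an enzyme of the lattices, went from 60.4 RPM to 0 reads in pig, at least 75.1-fold lower. Pig OOEP, in a row that overlaps another gene, went from 16.6 RPM to 0 reads, at least 20.6-fold lower. XPO1 was not called in either species (-0.89 in cow, 1.91 in pig).

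Of the replication fork genes, which load or unload the clamp, join and fill the new strand or deposit histones behind it, 12 of 14 could be compared in cow. There 2 were higher, 2 lower and 8 not called, with a median of -0.81. In pig all 14 were compared, with 2 higher, 3 lower and 9 not called and a median of -0.48. LIG1, the replicative DNA ligase, stood in cow at 516, 918, 79.9, 25.6 and 93.6 RPM, with low values from 8-16 cells on, as for cow DNMT1 and UHRF1. It was 5.51-fold lower in the blastocyst (5.16 to 5.90).

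ATAD5, which takes the clamp off DNA, was among the falls of either species: from 341 to 33.7 RPM in cow (10.1-fold, 9.13 to 11.2) and from 341 to 62.7 RPM in pig (5.43-fold, 4.72 to 6.28), where its row overlaps TEFM. FEN1, the flap endonuclease, was 25.7-fold higher in the cow blastocyst (12.4 to 64.2), from 1.42 to 36.5 RPM. In pig the polymerase delta subunit POLD3 fell from 149 to 12.9 RPM (11.5-fold, 8.58 to 15.9) and the chromatin assembly subunit CHAF1B from 66.0 to 6.97 RPM (9.47-fold, 6.29 to 14.8). PCLAF, a PCNA-binding protein, was at 1 read in the pig oocyte and 19.04 RPM in the blastocyst, a ratio of 64.3 with a counting interval of 11.2 to 2575.

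Of the genes that modify DNMT1 or mark it for destruction, 9 were compared in cow, with 2 higher, 0 lower and 7 not called and a median of 1.03. In pig 8 were compared, with 2 higher, 1 lower and 5 not called and a median of 0.28. SETD7, a lysine methyltransferase that acts on DNMT1, was higher in both blastocysts, from 1 read to 22.1 RPM in cow (ratio 109, 19.4 to 4325) and from 8.59 to 50.7 RPM in pig (5.90-fold, 3.98 to 9.05). HDAC1, a histone deacetylase, rose from 51.5 to 408 RPM in cow (7.92-fold, 6.99 to 9.02), where its row overlaps MARCKSL1. DDB1, an adaptor of the CUL4 ubiquitin ligase, rose from 36.1 to 157 RPM in pig (4.36-fold, 3.58 to 5.34) and was at 56.4 and 193 RPM in cow, under the threshold. PARP1, the poly(ADP-ribose) polymerase, fell from 150.4 to 23.6 RPM in pig (6.37-fold, 5.07 to 8.09) and was at 91.9 and 244 RPM in cow, under the threshold.

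Of the HELLS partners, CDCA7, which recruits HELLS to chromatin, was not called in either species (-0.59 in cow, -1.84 in pig). Its paralog CDCA7L fell in pig from 314 to 1.88 RPM (167-fold, 80.8 to 417), in a row that overlaps DNAH11, and was not called in cow (-1.68). ZBTB24, a zinc finger regulator of CDCA7, was higher in cow, from 3 reads to 9.10 RPM (ratio 14.9, 5.002 to 73.4), and not called in pig (1.16).

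Genes of cumulus and granulosa cells, which surround the oocyte, were present in the oocyte libraries. In cow 9 of 12 had at least 1 RPM there, led by STAR (157 RPM), HAS2 (141 RPM) and VCAN (116 RPM), with AMHR2 at 0 reads. In the cow 2-4 cell library 10 of 12 did, with STAR at 176, HAS2 at 126 and VCAN at 63.5 RPM. These genes thus did not mark the cow oocyte library alone. The summed level ran from 60.5 RPM in the cow morula to 989 RPM in the cow blastocyst, where PTGS2 alone gave 902 RPM. It was 555 RPM in the cow oocyte and 481 RPM at 2-4 cells. In pig 5 of 11 had at least 1 RPM in the oocyte, with TNFAIP6, INHBA and PTGS2 at 0 reads, and the sum ran from 136 RPM at 2-4 cells to 2160.2 RPM in the blastocyst. The part of such cells in the changes of the 7 genes was not tested. When libraries were scaled to reads in non-mitochondrial gene rows, every called change of the 7 genes kept its direction, and UHRF2 from morula to blastocyst in cow was the only one to lose its call.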

How the data were processed

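Total RNA was extracted with a PicoPure kit, amplified with Ovation RNA-Seq V2 and given 8 PCR cycles, per the labels' protocols. The submitters' processing notes name Trim Galore 0.6.4, HISAT2 2.1.0 and the builds UMD3.1 (cow) and Sscrofa11.1 (pig), and how reads were counted is not given in the sources used here. The deposited values are log2 values from the authors, and their unit is not named in the sources used here. That they are log2 RPM, with 0 reads written as 0.9 of a read, was worked out from the values. The value of 1 read gave each library's total, and 99.97% or more of the values came out whole within 0.02 reads. Each of the 10 sample columns was used, so 0 were left out.

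From these, log2(RPM + 1) differences, Wilson intervals of levels, exact conditional intervals of folds and Poisson intervals of ratios were computed with Python 3.11.15, pandas 2.3.3, numpy 2.4.6 and scipy 1.17.1. The steps were tested on simulated data. All table rows gave the background. Alternatives were another pseudocount, scaling, low-value filter, threshold and treatment of repeated symbols.

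The text names every member with a row, the 3 genes of each list with the largest oocyte to blastocyst change in each species, and the 3 nearest profiles of each member. XPO1, ATAD5 in pig and PARP1 in cow lie outside this rule and were named after their values were seen. Members and lists were chosen with earlier results of these data known.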

Additional observations from a re-analysis of the deposited data

Results flagged for a closer look

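UHRF1 moved in opposite directions between morula and blastocyst in the 2 species, by more than 1 on the log2 scale each way. The difference was -1.18 in cow, on 38 and 53 reads, and 1.09 in pig, on 6 and 20 reads. Neither was called, and the difference between the species was not tested. The pig morula level, 2.00 RPM (0.916 to 4.36), rests on 6 reads.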

How the results depend on the processing

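Called member changes kept their direction under all 5 alternatives run on them (0 of 19 changed sign), and 1 call was lost, UHRF2 from morula to blastocyst in cow. The count of changed cow members at that step was 1, and 0 with median-of-ratios size factors, 0 with quantile normalisation, 0 when scaled to reads in non-mitochondrial gene rows and 3 with a threshold of 1. In pig the count at that step was 1, and 3 with quantile normalisation, 2 with the non-mitochondrial scaling and 5 with a threshold of 1. A threshold of 1 also gave 4 in place of 2 cow members from 8-16 cells to morula, and 1 in place of 0 pig members at each of the first 2 steps. Over the 4 lists it gave 21 genes in place of 13 in cow and 22 in place of 12 in pig. In 2 of the 10 comparisons, cow oocyte to 2-4 cells and pig oocyte to blastocyst, the count was the same under all 8 alternatives. Size factors or a threshold of 1 gave 3 in place of 2 cow members from 2-4 to 8-16 cells, and the threshold 6 in place of 4 from oocyte to blastocyst in cow and 5 in place of 4 from 8-16 cells to morula in pig. Calls gained were HELLS in cow from 2-4 to 8-16 cells (2.03) and UHRF2 (-2.11) and USP7 (-2.10) in pig from morula to blastocyst. Of the uncalled changes, 5 changed sign: DNMT1 and DPPA3 in cow from morula to blastocyst, UHRF1 and UHRF2 in pig from oocyte to 2-4 cells, and USP7 in pig from 8-16 cells to morula. Other scalings moved the median of all genes by -0.41 to 0.42 and the higher share of calls by -29.9 to 14.7 percentage points. No paired analysis was possible because each group held 1 library, and for the same reason no library could be left out. Depth limits pig UHRF1 most, at 6 reads in the morula.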
